A study of Mus musculus with 24 samples.

Results

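Car3 and 6 adipocyte genes, Adipoq, Cfd, Fabp4, Plin1, Cidec and Retn, were followed in mouse dorsal root ganglia to ask whether Car3 moved with the genes of fat tissue or apart from them. The 7 genes were found by symbol among 38215 genes, and all 7 passed the filter on low values that 27058 genes passed. They had been chosen from values of these same libraries, so that their levels and fold changes are a description and are given without p-values. Statements that a member passed or missed a threshold in the fit of all genes belong to that description. The ganglia came from mice of 3 strains labelled CAST, DBA and C57, taken 5 days after sciatic nerve crush (injured) or from uninjured mice (labelled naive, although the treatment protocol speaks of sham injury), with 4 libraries in each of the 6 groups. No genetic change or drug is given in the labels, which name standard housing for all mice and give no age or sex, and other strains of the study are not analysed here. The quadruplicates are called biological in the series design.

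Carbonic anhydrases catalyse the reversible hydration of carbon dioxide. Car3 is a cytosolic member of the family with low catalytic activity that is abundant in white fat, slow skeletal muscle and liver. A dorsal root ganglion holds the cell bodies of sensory neurons with their satellite glia, Schwann cells, vessels and connective tissue, and fat can lie against it and its nerve. In bulk RNA, fewer cells of a type and less RNA per cell cannot be told apart.

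Values are FPKM, fragments per kilobase and per-million reads, and the kilobase term in these files matched the whole span of the gene with its introns, so levels are compared between samples and not between genes. Estimated depth was 51.38 to 145.47 M reads per library (M stands for 1e6 reads). Retn rested on 2.0 to 29.9 estimated reads in a library and Adipoq on 1.0 to 170.8, whereas Car3 rested on 157.5 to 5260 (the estimates are approximate where the authors' gene models differ from those used here). Naive DBA replicate 3 stood apart. The summed level of 14 skeletal muscle genes was 49.9 FPKM there, against 0.464 to 8.60 FPKM in the other 23 libraries, and Car3 and all 6 adipocyte genes were at the highest level of their group in it. The sum of 10 sensory neuron genes was 431 to 520 FPKM in injured ganglia and 612 to 703 FPKM in naive ganglia, and no marker in any list was at 0 in all libraries.

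The Car3 gene lies on chromosome 3 (build mm10, 14863512 to 14872523, plus strand), upstream of Car2 at 14886273 to 14900770 on the same strand, and its annotated span overlaps no other gene. Fabp4 lies on chromosome 3 as well, at 10204088 to 10208576 on the minus strand. None of the other 5 spans overlaps another annotated gene either. Cfd lies on chromosome 10 at 79890853 to 79892655, Adipoq on chromosome 16 at 23146536 to 23158028 and Plin1 on chromosome 7 at 79720218 to 79732903. Cidec lies on chromosome 6 at 113424634 to 113435760 and Retn on chromosome 8 at 3655770 to 3660110.

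Promoters from RefSeq (build GRCm38.p6, 250 bases before to 50 bases after the annotated start) were matched for 5 of the 7 members, Adipoq, Cfd, Plin1, Cidec and Retn. Those of 3 genes that moved together from library to library are shown. Both strands were searched for 5 motifs. The TATA box, TATAAA, was held by 13.6% of 32851 promoters of the same length. The second motif, CCAAT, was held by 37.4% of them. The third, TTGCNNAA, has letters found in sites of the C/EBP factors, regulators of fat cell differentiation, and was held by 10.8%. The core letters of nuclear receptor sites, AGGTCA, were held by 16.3%. The letters of AP-1, a class of injury-induced factors, TGANTCA, were held by 7.8%. The capitals mark the second motif in Adipoq and the third in Plin1, on either strand, without overlap. None of the 5 was found in Cfd.
Adipoq, chr16:23146286-23146585, plus strand: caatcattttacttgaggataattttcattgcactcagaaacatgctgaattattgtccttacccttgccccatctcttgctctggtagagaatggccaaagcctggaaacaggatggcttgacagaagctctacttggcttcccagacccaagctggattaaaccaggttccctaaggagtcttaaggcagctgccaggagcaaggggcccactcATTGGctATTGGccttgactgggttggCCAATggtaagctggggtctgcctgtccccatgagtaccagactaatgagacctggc
Plin1, chr7:79732727-79733026, minus strand: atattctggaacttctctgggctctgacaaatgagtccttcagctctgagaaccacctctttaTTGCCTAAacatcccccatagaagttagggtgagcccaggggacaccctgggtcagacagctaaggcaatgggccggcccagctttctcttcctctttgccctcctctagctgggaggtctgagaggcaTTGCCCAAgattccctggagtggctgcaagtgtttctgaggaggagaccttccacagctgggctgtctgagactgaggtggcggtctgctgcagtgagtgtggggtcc
Cfd, chr10:79890603-79890902, plus strand: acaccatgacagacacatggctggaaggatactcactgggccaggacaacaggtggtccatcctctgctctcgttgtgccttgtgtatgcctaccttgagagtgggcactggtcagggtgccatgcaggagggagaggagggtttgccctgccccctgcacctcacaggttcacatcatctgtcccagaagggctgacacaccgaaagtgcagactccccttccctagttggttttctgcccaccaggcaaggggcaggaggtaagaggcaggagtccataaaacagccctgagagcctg
Of the members not shown, Retn held none of the 5, and 1 of 2 Cidec promoters held the C/EBP letters and the AP-1 letters. The C/EBP letters were therefore found in Plin1 and Cidec but not in Adipoq, Cfd or Retn, so no searched motif was shared by all 5 genes.

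Car3 was higher after crush in DBA and C57 ganglia and not in CAST ganglia. It measured 0.859, 1.15, 0.396 and 0.533 FPKM in injured CAST ganglia, against 1.68, 0.734, 0.512 and 1.23 FPKM in naive CAST ganglia. It measured 2.42, 2.27, 2.25 and 2.26 FPKM in injured DBA ganglia, against 0.443, 0.202, 1.39 and 0.226 FPKM in naive DBA ganglia. It measured 5.44, 4.64, 5.54 and 5.01 FPKM in injured C57 ganglia, against 0.182, 0.443, 0.255 and 0.372 FPKM in naive C57 ganglia. Injured and naive libraries overlapped in CAST, and every injured library lay above every naive one in DBA and in C57.

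**Figure D1:**
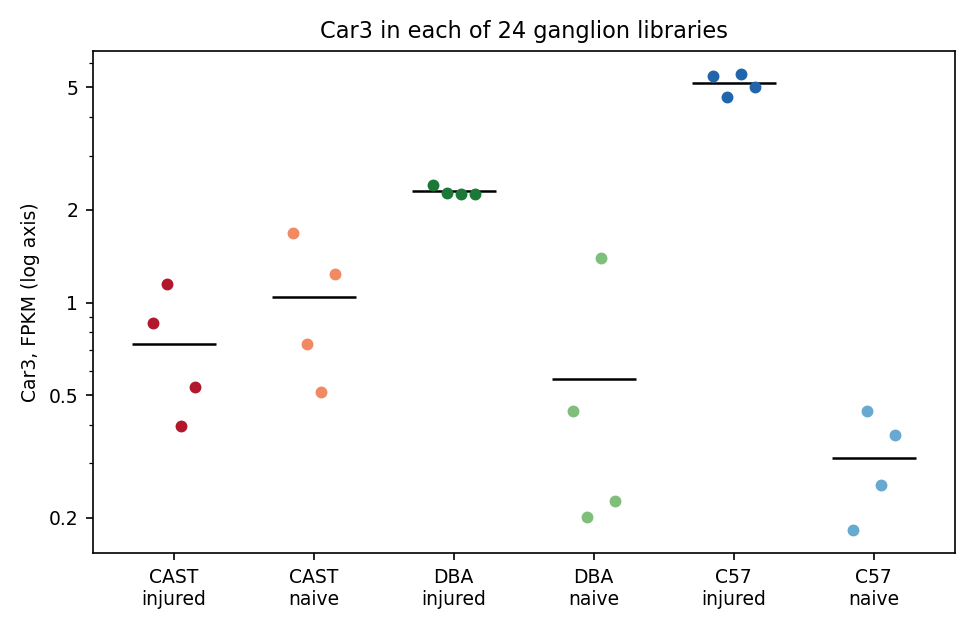
Car3 in FPKM (log axis) in each of the 24 libraries, with the groups along the horizontal axis, points for libraries and lines for group means. The 4 injured C57 libraries lie at 4.64 to 5.54 FPKM and the 4 injured DBA libraries at 2.25 to 2.42 FPKM, both in tight bands, whereas the 4 libraries of each CAST group and of each naive group are spread.

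The mean of Car3 was 0.734 ± 0.338 FPKM in injured CAST ganglia and 1.04 ± 0.523 FPKM in naive CAST ganglia (SD, n = 4 each), a ratio of 0.706. It was 2.298 ± 0.0793 FPKM in injured DBA ganglia and 0.566 ± 0.563 FPKM in naive DBA ganglia (SD, n = 4 each), a ratio of 4.06, or 7.92 without naive DBA replicate 3, when the naive DBA mean was 0.290 FPKM. It was 5.16 ± 0.415 FPKM in injured C57 ganglia and 0.313 ± 0.117 FPKM in naive C57 ganglia (SD, n = 4 each), a ratio of 16.5. On the log2(FPKM + 1) scale of the fit across all genes, which understates changes of genes with low FPKM, the difference between injured and naive was -0.22 in CAST, 1.13 in DBA and 2.23 in C57, each with an SE of 0.188. Without naive DBA replicate 3 the DBA difference was 1.36.

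The strains stood in a different order in the 2 conditions. In injured ganglia Car3 ran C57, DBA, CAST from high to low with no overlap between neighbours, and the injured CAST mean was 0.142 of the injured C57 mean and 0.320 of the injured DBA mean. The injured DBA mean was 0.445 of the injured C57 mean. In naive ganglia the order of the means was CAST, DBA, C57, in which the places of DBA and C57 rest on 1 library: without naive DBA replicate 3 the naive DBA mean, 0.290 FPKM, was below the naive C57 mean, 0.313 FPKM, and the difference of DBA from C57 was -0.03 log2 units in place of 0.20. Naive CAST and naive DBA overlapped, as did naive DBA and naive C57, and the naive CAST mean was 3.32 times the naive C57 mean, without overlap. The response to crush in CAST was smaller than in C57, with a difference of -2.45 log2 units, and smaller than in DBA, with a difference of -1.35 log2 units (SE 0.266 each). The response in DBA was smaller than in C57, with a difference of -1.10 log2 units (SE 0.266), which passed the call described below on this scale but not with 0.1 FPKM added in place of 1 or on per-million estimated reads.

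Of the secreted adipocyte products, Cfd encodes the serine protease adipsin, complement factor D. It measured 4.801, 6.90, 1.72 and 2.10 FPKM in injured CAST ganglia, against 8.66, 3.83, 3.17 and 7.22 FPKM in naive CAST ganglia. It measured 0.739, 1.37, 0.540 and 0.476 FPKM in injured DBA ganglia, against 0.650, 0.351, 2.13 and 0.433 FPKM in naive DBA ganglia. It measured 0.170, 0.414, 0.744 and 0.975 FPKM in injured C57 ganglia, against 0.323, 1.56, 0.697 and 1.15 FPKM in naive C57 ganglia. Injured and naive libraries overlapped in all 3 strains, and all 8 CAST libraries were above all C57 libraries.

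Adipoq encodes adiponectin, a hormone made by fat cells. It measured 0.0863, 0.0845, 0.0252 and 0.0401 FPKM in injured CAST ganglia, against 0.143, 0.0608, 0.0549 and 0.118 FPKM in naive CAST ganglia. It measured 0.0119, 0.0240, 0.00973 and 0.00783 FPKM in injured DBA ganglia, against 0.0123, 0.0120, 0.0501 and 0.00992 FPKM in naive DBA ganglia. It measured 0.000842, 0.00616, 0.0229 and 0.0186 FPKM in injured C57 ganglia, against 0.00611, 0.0260, 0.0125 and 0.0206 FPKM in naive C57 ganglia. Injured and naive libraries again overlapped in each strain. The lowest injured C57 value stood for 1.0 estimated read. Retn, the gene of resistin, another secreted protein of mouse fat, ranged from 0.0134 to 0.0549 FPKM in injured CAST ganglia and from 0.0299 to 0.0548 FPKM in naive CAST ganglia, and from 0.00468 to 0.0666 FPKM in the other 16 libraries.

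The other 3 adipocyte genes act in fat uptake and storage inside the cell. Fabp4, the fatty acid binding protein of adipocytes, which macrophages and some endothelial cells also make, measured 1.97, 2.15, 0.532 and 0.868 FPKM in injured CAST ganglia, against 2.78, 1.27, 1.19 and 3.08 FPKM in naive CAST ganglia. It measured 0.468, 0.624, 0.314 and 0.258 FPKM in injured DBA ganglia, against 0.503, 0.219, 1.48 and 0.241 FPKM in naive DBA ganglia. It measured 0.134, 0.193, 0.267 and 0.225 FPKM in injured C57 ganglia, against 0.148, 0.764, 0.563 and 0.321 FPKM in naive C57 ganglia. The 2 conditions overlapped in each strain. Plin1, which encodes the perilipin that coats lipid droplets and gates their breakdown, ranged from 0.0290 to 0.0693 FPKM in injured CAST ganglia and 0.0266 to 0.0706 FPKM in naive CAST ganglia, and from 0.00401 to 0.0543 FPKM in the other 16 libraries. Cidec, a lipid droplet protein that drives droplet enlargement, was the adipocyte gene whose response looked most like that of Car3. It measured 0.0179, 0.0184, 0.0202 and 0.0296 FPKM in injured C57 ganglia, against 0.00776, 0.0178, 0.00626 and 0.00915 FPKM in naive C57 ganglia, 2.10 times the naive mean. The 2 groups did not overlap, but the nearest libraries were almost level. These values rested on 11.6 to 36.7 estimated reads in injured and 6.81 to 19.3 in naive C57 libraries. On the log2(FPKM + 1) scale, which understates changes at low FPKM, the Cidec difference in C57 was 0.016 (SE 0.0152), against 2.23 for Car3. In DBA the injured Cidec mean was 1.77 times the naive mean with overlap, or 2.71 times without naive DBA replicate 3, and in CAST it was 0.716 of the naive mean.

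**Figure D2:**
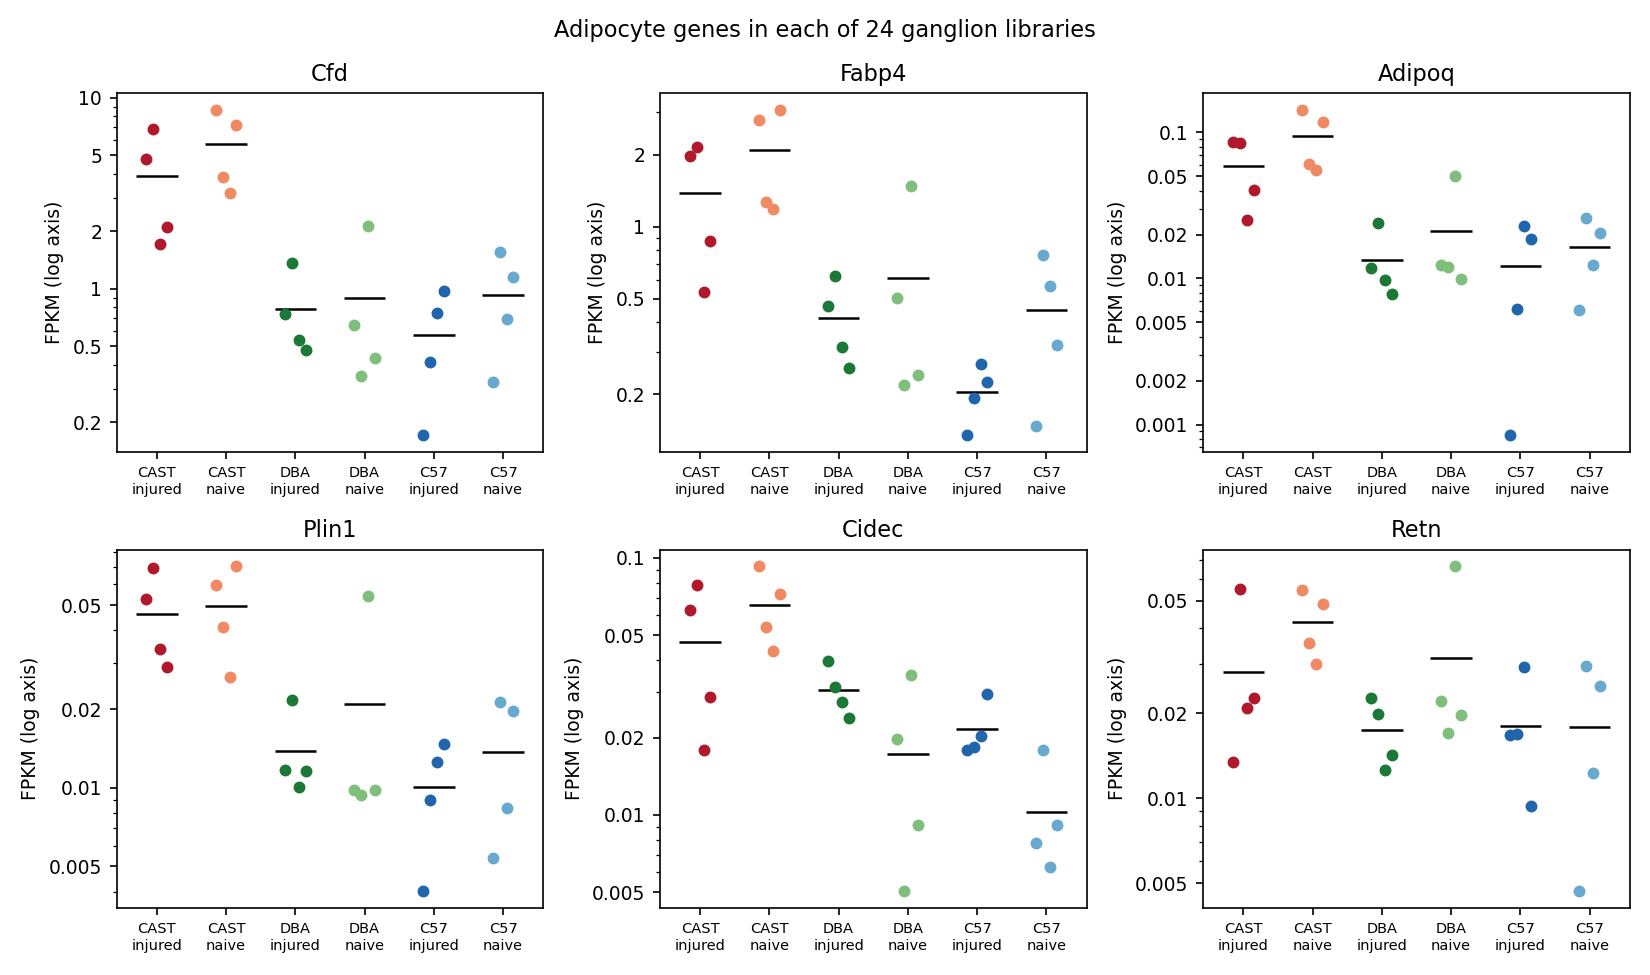
FPKM (log axes) of the 6 adipocyte genes in each of the 24 libraries, 1 panel per gene, with points for libraries and lines for group means. CAST libraries sit high in both conditions in most panels, injured and naive libraries of a strain overlap in every panel but C57 Cidec, and naive DBA replicate 3 is the highest point of its group throughout.

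A gene was called in the fit of all genes (limma on log2(FPKM + 1), Benjamini-Hochberg adjusted p under 0.05). None of the 6 adipocyte genes was called after crush in CAST, DBA or C57, where 47.2%, 50.1% and 38.6% of 27058 genes were called in either direction. At an unadjusted p under 0.05 there was 1 in CAST (Adipoq, lower after crush) and 0 in DBA and C57. With 0.1 FPKM added in place of 1, and on per-million estimated reads, the number called was again 0 in each strain. The ratio of injured to naive means over the 6 genes was 0.628 to 0.935 in CAST, 0.554 to 1.77 in DBA and 0.456 to 2.10 in C57. The DBA ratios rest on naive DBA replicate 3: without it they were 1.17 for Adipoq, 1.63 for Cfd, 1.30 for Fabp4, 1.43 for Plin1, 2.71 for Cidec and 0.885 for Retn, so that the first 4 turned direction, and again none was called. Of the 7 members, Car3 was the one called as higher in DBA and in C57, where 26.3% and 18.1% of all genes were called as higher, and it was among those without overlap (1 member in DBA, against 25.6% of all genes, and 2 in C57, Car3 and Cidec, against 16.0%). None of the 6 adipocyte genes was called in the differences of the crush response between CAST and C57, CAST and DBA, or DBA and C57, where 13.1%, 15.6% and 9.03% of genes were called, and none passed an unadjusted p under 0.05. Cidec passed the unadjusted threshold in the first 2 of these differences with 0.1 FPKM added and on per-million estimated reads, and in the second also without naive DBA replicate 3. The members were chosen with these values known, so the calls of Car3 and of the adipocyte genes describe them and test nothing.

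Without injury all 7 members had a higher mean in CAST than in either other strain. All 7 were called as higher in naive CAST than in naive C57 ganglia without overlap, where 24.1% of all genes were called as higher and 22.5% did not overlap. The naive CAST mean was 6.14 times the naive C57 mean for Cfd, 5.77 times for Adipoq, 4.63 times for Fabp4, 3.62 times for Plin1, 6.41 times for Cidec and 2.36 times for Retn. Against naive DBA, 5 members were called as higher in naive CAST (23.7% of all genes) and 3 of them did not overlap (25.2% of all genes). The 5 were Cfd at 6.42 times, Adipoq at 4.46 times, Fabp4 at 3.41 times, Cidec at 3.81 times and Plin1 at 2.37 times the naive DBA mean, and Car3 and Retn were not called. Without naive DBA replicate 3 the ratios were 11.97 for Cfd, 8.25 for Adipoq, 6.48 for Fabp4, 5.82 for Cidec and 5.12 for Plin1, and all 7 members were called, with Car3 at 3.58 times and Retn at 2.15 times the naive DBA mean. Between naive DBA and naive C57 none of the 7 was called, where 21.3% of genes were called, and none passed an unadjusted p under 0.05 among the adipocyte genes. Since the members were chosen on these libraries, nothing is read from these counts.

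The 6 adipocyte genes moved together. With each library's deviation from its own group mean taken on the log2(FPKM + 1) scale, the 15 pairs among them had a Pearson r of 0.635 to 0.927 (median 0.875) over 24 libraries. Car3 moved with them. Its r with the mean of the 6 was 0.896 (Spearman rho 0.90, n = 24), and with the single genes it was 0.848 for Cidec to 0.893 for Plin1. None of the genes outside the 7 followed the adipocyte mean more closely than Car3 did. Without naive DBA replicate 3 and injured CAST replicate 2, the 2 libraries farthest from the median, r was 0.852. These values describe libraries that share groups, strains and preparation, they carry no p, and they are among 84 such relations computed over 12 sets of libraries. The mean on this scale is set mostly by Cfd and Fabp4, whose values are above those of the other 4.

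Across the group means the relation was different. Over all 24 libraries without removal of group means, r was -0.16 (rho -0.02), and r with the single adipocyte genes was -0.18 to 0.13. Within the 12 naive libraries it was 0.906 (rho 0.937), or 0.801 without the 2 farthest libraries, and 0.958 with group means removed. Within the 8 CAST libraries, injured and naive together, it was 0.962 (rho 0.976), or 0.965 without the 2 farthest. In the other strains Car3 differed between injured and naive ganglia. There the same r was 0.309 in the 8 DBA libraries (rho 0.595), or 0.414 without the 2 farthest. It was -0.42 in the 8 C57 libraries (rho -0.26), or -0.055 without the 2 farthest. Of the single genes Cidec ran with Car3 in these sets, at 0.850 in DBA (rho 0.833) and 0.792 in C57 (rho 0.857). That was not particular to Cidec, since 3660 genes in DBA and 4031 in C57 had a higher r with Car3. In the 8 injured DBA and C57 libraries, group means removed, the r of Cidec with Car3 was 0.148. The other adipocyte genes had an r of 0.00968 to 0.364 in DBA and -0.54 to 0.088 in C57. Within the 12 injured libraries the r of Car3 with the adipocyte mean was -0.68 (rho -0.69). Those libraries fall into separate strains, and with group means removed r was 0.842, or 0.553 without the 2 farthest, so that it rests in part on 2 libraries. In the 8 injured DBA and C57 libraries, group means removed, it was 0.032, or 0.710 without the 2 farthest, so no relation can be read there. Car3 hardly varied in those groups: the highest library was 1.07 times the lowest in injured DBA and 1.19 times in injured C57, while Cfd varied 2.87-fold and 5.72-fold and Adipoq 3.07-fold and 27.1-fold in the same libraries.

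**Figure D3:**
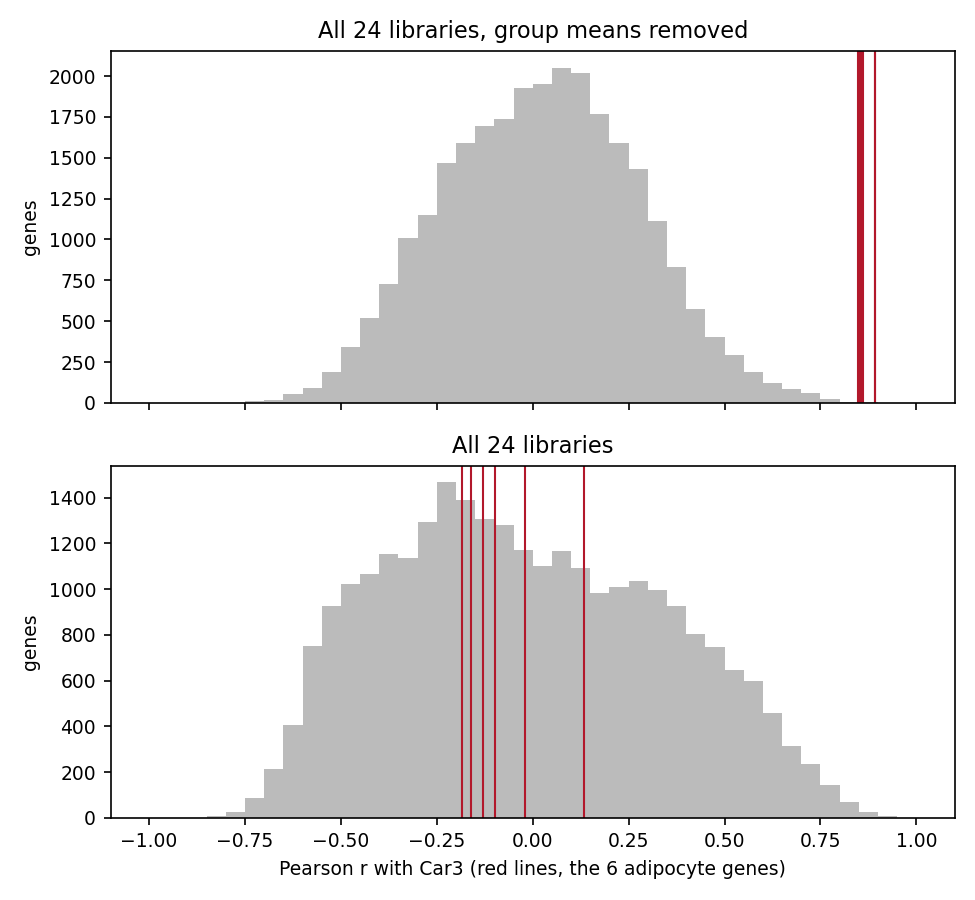
Histograms of the Pearson r of every gene that passed the filter with Car3 over 24 libraries (horizontal axis r, vertical axis number of genes), with red lines at the 6 adipocyte genes. With group means removed (upper panel) the lines stand at 0.848 to 0.893, beyond nearly all genes, and without removal (lower panel) they stand at -0.18 to 0.13, in the middle of the genes.

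The FPKM ratio of Car3 to 1 of the adipocyte genes, Cfd, showed the same split. The spans of both genes enter that ratio, so only its differences between libraries are read. The ratio of Car3 to Cfd was 0.167 to 0.255 in injured CAST ganglia and 0.161 to 0.194 in naive CAST ganglia, overlapping ranges. It was 1.66 to 4.75 in injured DBA ganglia and 0.522 to 0.682 in naive DBA ganglia. It was 5.14 to 31.9 in injured C57 ganglia and 0.284 to 0.563 in naive C57 ganglia. The ratio was thus within a narrow range in CAST whether injured or naive, and in naive DBA it held at 0.655 in replicate 3, where Car3, Cfd and the muscle genes were all high. The ratio of Cfd to Fabp4 had no such shift, at 1.58 to 2.19 in injured DBA, 1.29 to 1.80 in naive DBA, 1.27 to 4.34 in injured C57 and 1.24 to 3.58 in naive C57 ganglia. As a scale for the excess, each library's Cfd was multiplied by the median Car3 to Cfd ratio of the 8 CAST libraries, 0.185. Measured Car3 was 8.97 to 25.6 times that product in injured DBA libraries and 2.82 to 3.68 times in naive DBA libraries. It was 27.7 to 172 times the product in injured C57 libraries and 1.53 to 3.04 times in naive C57 libraries. The naive DBA and naive C57 libraries therefore also lay above the CAST ratio of Car3 to Cfd, by a smaller amount. With Fabp4 in place of Cfd, naive C57 libraries overlapped CAST libraries. The ratio of Car3 to Fabp4 was 0.437 to 0.744 in injured CAST and 0.401 to 0.604 in naive CAST ganglia. In naive DBA ganglia it was 0.880 to 0.9455, and in naive C57 ganglia 0.453 to 1.23. In injured DBA ganglia it was 3.64 to 8.745, and in injured C57 ganglia 20.8 to 40.5.

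**Figure D4:**
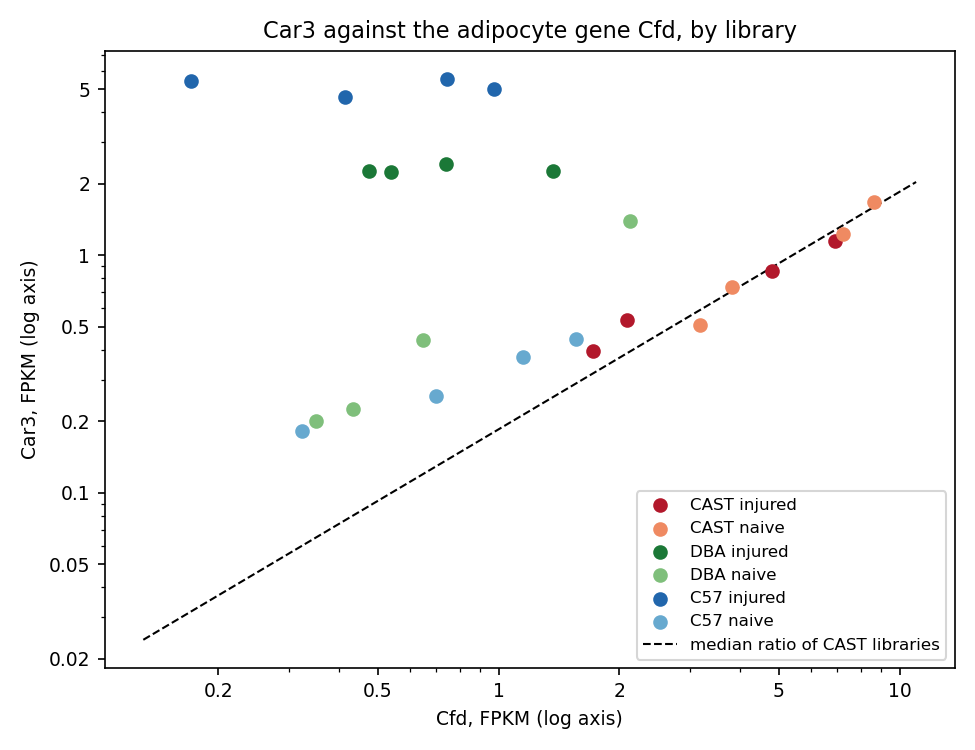
Car3 against Cfd, both in FPKM on log axes, 1 point per library with color for the group, and a dashed line at the median Car3 to Cfd ratio of the 8 CAST libraries, 0.185. CAST libraries of both conditions follow the line, and naive DBA and naive C57 libraries run along it at a higher ratio. Injured DBA and injured C57 libraries form flat bands at 2.25 to 2.42 and 4.64 to 5.54 FPKM of Car3. These bands span 0.476 to 1.37 FPKM of Cfd in injured DBA and 0.170 to 0.975 FPKM in injured C57, whereas Cfd reaches 8.66 FPKM in naive CAST.

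The mean of the adipocyte genes was added to the fit of all genes as a covariate. The crush difference of Car3 then was 0.04 log2 units in CAST, 1.18 in DBA and 2.37 in C57, the last with an SE of 0.0878 in place of 0.188. The difference between naive CAST and naive C57 was -0.20, where it had been 0.60 without the covariate, and it was no longer called. The difference between naive CAST and naive DBA was -0.37 in place of 0.41, and it was called as lower in CAST. The differences of the crush response were -2.33 between CAST and C57, -1.14 between CAST and DBA and -1.19 between DBA and C57. The direction of the naive strain difference thus changed with the covariate, and the crush differences in DBA and C57 did not. The covariate went with strain: the summed adipocyte genes were 4.52 to 11.8 FPKM in naive CAST ganglia. The sum was 0.614 to 3.81 FPKM in naive DBA and 0.495 to 2.42 FPKM in naive C57 ganglia. All groups shared 1 slope, although r was 0.032 in the 8 injured DBA and C57 libraries, group means removed. Nothing is therefore read from the calls of the adjusted naive differences.

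The genes most like Car3 over the 24 libraries were looked for among 19154 genes with a mean of at least 0.1 FPKM. Over undivided libraries the 10 with the highest Pearson r were Sprr2a1, Sprr2a2, Bdkrb2, H2-M1, Epb4.1l4a, Kcnk16, Sprr2a3, Rasl10b, Gm15687 and Neto1, at 0.869 to 0.921. Their r with the adipocyte mean was -0.52 to -0.29. Sprr2a1, a small proline-rich protein gene, averaged 0.0125 FPKM in injured CAST and 0.000358 FPKM in naive CAST ganglia, 0.439 FPKM in injured DBA and 0.00759 FPKM in naive DBA ganglia, and 1.22 FPKM in injured C57 and 0.0268 FPKM in naive C57 ganglia. The Sprr2a copies are near-identical and their reads may have been split between them, so each single value is uncertain. Bdkrb2, the bradykinin B2 receptor, averaged 0.0741 FPKM in injured CAST and 0.0938 FPKM in naive CAST, 0.138 FPKM in injured DBA and 0.0696 FPKM in naive DBA, and 0.169 FPKM in injured C57 and 0.0670 FPKM in naive C57 ganglia. In CAST 3 of the 10 were called as higher after crush, where 25.6% of all genes were called as higher and 21.5% as lower. They were Kcnk16, a two-pore-domain potassium channel gene, by 0.24 log2 units (SE 0.0252, limma adjusted p = 8.83e-08), Neto1 by 0.14 (adjusted p = 1.35e-06) and Epb4.1l4a by 0.05 (adjusted p = 0.000348). Rasl10b was called as lower there (-0.11, limma adjusted p = 0.00194). All 10 were called as higher after crush in both DBA and C57, where 26.3% and 18.1% of all genes were. Car3 was high in those same libraries and the 10 were picked for their r with it, so nothing is read from this count or from that in CAST. On deviations from group means the list had other genes: Cyp2e1, Gdf10, Tpm2, Metazoa_SRP, Tcap, 4930562F07Rik, Hspb7, Inmt, Pyroxd2 and Ltbp4, at 0.783 to 0.877. Tcap and Hspb7 are muscle genes and Tpm2 encodes a tropomyosin of muscle, and their r with the adipocyte mean was 0.667 to 0.697. Tcap (1.40 FPKM) and Tpm2 (0.294 FPKM) had their highest group mean in naive DBA, which holds replicate 3. Hspb7 had its highest in injured CAST (0.299 FPKM). How far the r values of this list rest on that replicate was not tested. The 10 genes most like the adipocyte mean on deviations were Inmt, Gdf10, Cyp2e1, Ltbp4, Drp2, Lamb2, Myh11, 4930562F07Rik, Hp and Prx, at 0.798 to 0.888. Drp2 and Prx encode proteins of myelinating Schwann cells, and Myh11 the myosin of smooth muscle.

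Of a wider list of 20 fat genes, 19 passed the filter. Against naive ganglia 9 were called as higher and 3 as lower after crush in CAST, 9 and 2 in DBA and 8 and 2 in C57, where 25.6% and 21.5% of all genes were called in CAST, 26.3% and 23.8% in DBA and 18.1% and 20.5% in C57. The median log2 fold change of the list was 0.01 in each strain, against 0.00 over all genes. The 4 with the largest called changes on the log2(FPKM + 1) scale were Fasn, Thrsp, Cebpa and Plin4, all of which are also made outside fat. Genes with low FPKM rank low on that scale: as a ratio of means Pck1 was 5.90 times as high in naive CAST as in naive C57 ganglia and Adrb3, a beta-adrenergic receptor of fat, 3.09 times as high in injured as in naive C57 ganglia, while the largest crush ratio of Fasn was 1.79, in DBA. Fasn, fatty acid synthase, rose by 0.43 in CAST (SE 0.0804, limma adjusted p = 0.00015), by 0.80 in DBA (adjusted p = 4.47e-08) and by 0.71 in C57 (adjusted p = 4.24e-07). Thrsp, a regulator of lipid synthesis, fell by 0.93 in CAST, 0.78 in DBA and 0.99 in C57 (SE 0.0674, adjusted p of 5.55e-09 or less by limma). Cebpa, a transcription factor of fat and myeloid cells, rose by 0.54 in CAST, 1.08 in DBA and 0.24 in C57 (SE 0.0887). Plin4, a lipid droplet coat protein also made in muscle, was called in DBA only among these crush comparisons, lower by 0.74 (-0.74, SE 0.275, limma adjusted p = 0.0298). Without naive DBA replicate 3, 1 of the 19 was called as lower in DBA in place of 2. On deviations from group means, 4 of the 19 had an r above 0.7 with the adipocyte mean, against 0.447% of all genes. Of other lists, 4 of 8 Schwann cell genes, 2 of 10 endothelial genes and 1 of 10 fibroblast genes were above 0.7 as well. The 4 fat genes were Lpl, lipoprotein lipase, at 0.875, Cd36, a fatty acid transporter, at 0.872, Slc2a4, the insulin-responsive glucose transporter, at 0.822, and Pck1, of glycerol synthesis in fat, at 0.812, and they were named after their values were seen. The 4 named as most changed had r of 0.228 to 0.677. Of 8 brown fat genes, all passed, 1 was called as higher and 3 as lower after crush in CAST, 1 and 2 in DBA and 1 and 3 in C57, and none had an r above 0.7. Cidea, a lipid droplet protein of brown fat, was called as lower in all 3 strains, by -0.02 in CAST, -0.16 in DBA and -0.05 in C57.

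On the log2(FPKM + 1) scale none of the other carbonic anhydrases had a crush difference as large as that of Car3 in DBA or C57. As a ratio of injured to naive means Car3 was also the highest in C57, at 16.5, but not in DBA. There the ratio was 8.88 for Car1, 8.78 for Car4 and 5.02 for Car6, which rested on few reads, against 4.06 for Car3, or 7.92 without naive DBA replicate 3. Of 15, 14 passed the filter, and after crush 1 was called as higher and 4 as lower in CAST, 3 and 5 in DBA and 1 and 5 in C57. Of all genes, 25.6% and 21.5% were called in these directions in CAST, 26.3% and 23.8% in DBA and 18.1% and 20.5% in C57. Car1, a cytosolic enzyme of red cells and gut whose gene lies near Car3, was the one called as higher in all 3 strains, by 0.05 in CAST, 0.13 in DBA and 0.09 in C57 (SE 0.00437). Car2, the fast cytosolic enzyme and neighbour of Car3, fell by 0.66 in CAST (SE 0.0453, limma adjusted p = 2e-10) and by 0.34 in C57 (limma adjusted p = 3.82e-06), and its difference was 0.01 in DBA (limma adjusted p = 0.921). Car4, a membrane-anchored enzyme, rose by 0.33 in DBA (SE 0.025, limma adjusted p = 9.42e-10), with 0.01 in both CAST and C57. Car11 and Car15 were not called in any strain. The r of the 14 with the adipocyte mean on deviations from group means was -0.49 to 0.39, and none followed it as Car3 did.

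**Figure D5:**
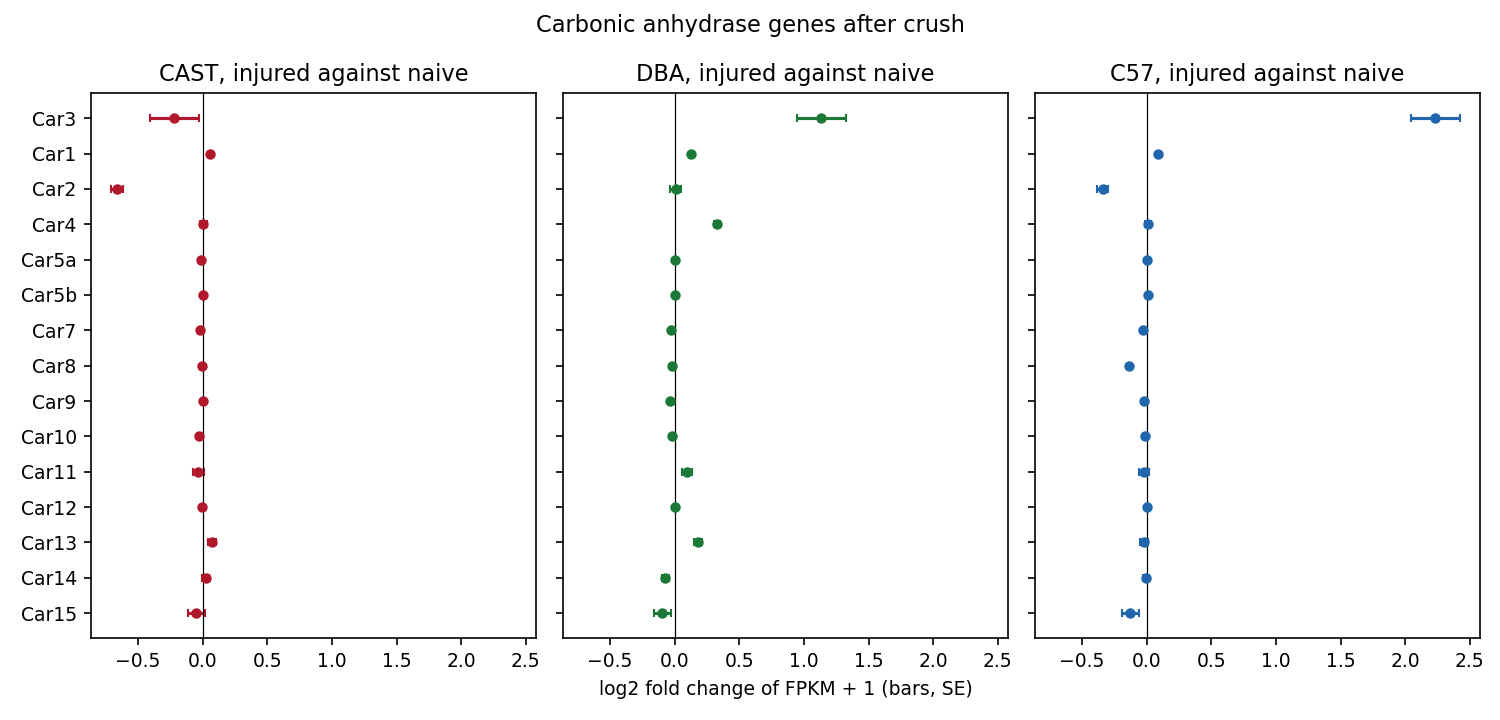
Log2 fold change of FPKM + 1 in injured against naive ganglia (horizontal axis, bars SE) for Car3 and the other 14 carbonic anhydrases that passed the filter, 1 panel per strain. Car3 lies at -0.22 in CAST, 1.13 in DBA and 2.23 in C57, and every other member lies between -0.66 and 0.33.

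Markers of other cells were set beside these results. The summed level of 14 skeletal muscle genes was 0.965 to 7.74 FPKM in injured CAST and 0.711 to 8.60 FPKM in naive CAST ganglia, 0.842 to 1.76 FPKM in injured DBA and 0.983 to 49.9 FPKM in naive DBA ganglia, and 0.828 to 2.46 FPKM in injured C57 and 0.464 to 3.40 FPKM in naive C57 ganglia. Groups overlapped in each strain, and injured DBA and C57 ganglia, where Car3 was highest, did not have the highest sums. The r of Car3 with this sum on deviations was 0.705 over 24 libraries, with 0.812 in the 12 naive libraries, 0.408 in the 8 CAST libraries and 0.0497 in the 8 injured DBA and C57 libraries. Without naive DBA replicate 3 it was 0.450 over 23 libraries and 0.566 in the 11 naive ones, where the r of Car3 with the adipocyte mean was 0.882 and 0.943. Of the 14 muscle genes, 1 was called as higher after crush in CAST and 1 in C57, in each case Tnni1, and 2 as lower in DBA (Ckm and Mylpf), which were not called without naive DBA replicate 3. The summed level of 10 macrophage genes was 36.9 to 47.2 FPKM in injured CAST and 4.16 to 5.23 FPKM in naive CAST ganglia, 31.8 to 35.6 FPKM in injured DBA and 5.38 to 6.73 FPKM in naive DBA ganglia, and 25.7 to 30.1 FPKM in injured C57 and 5.23 to 6.51 FPKM in naive C57 ganglia. The macrophage sum was highest in injured CAST ganglia, and Car3 was lowest there among injured ganglia. The genes of the list did not all differ alike. In the difference of the crush response between CAST and C57, 7 of 10 were called as higher and 2 as lower. Of all genes, 13.1% were called there in either direction. C1qa, a complement gene of macrophages, led the list and rose by 2.89 in CAST, 2.26 in DBA and 1.98 in C57 (SE 0.0801). The summed level of 10 fibroblast genes was 31.9 to 34.6 FPKM in injured CAST and 13.2 to 18.0 FPKM in naive CAST ganglia, 39.6 to 44.9 FPKM in injured DBA and 14.98 to 23.2 FPKM in naive DBA ganglia, and 20.2 to 26.2 FPKM in injured C57 and 11.5 to 19.8 FPKM in naive C57 ganglia. The part of these cells in the Car3 values was not tested. After crush in CAST, DBA and C57, the genes called as higher numbered 5, 4 and 0 of 10 endothelial genes, 4, 3 and 2 of 8 Schwann cell genes and 1, 2 and 1 of 6 satellite glia genes, and 9, 9 and 8 of 10 sensory neuron genes were called as lower. Of all genes, 25.6%, 26.3% and 18.1% were called as higher and 21.5%, 23.8% and 20.5% as lower in the same order of strains. On deviations from group means the median r with the adipocyte mean was 0.690 for the Schwann cell genes, 0.569 for the muscle genes, 0.554 for the fibroblast genes, 0.465 for the endothelial genes and 0.410 for the wider fat genes, against 0.0507 over all genes, and -0.09 for the macrophage genes, 0.0328 for the satellite glia genes and 0.113 for the sensory neuron genes.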

How the data were processed

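Total RNA of 24 dorsal root ganglion samples was obtained by Trizol and made into Illumina libraries, per the labels' protocols, and reads were aligned with STAR 2.3.0 to mm10, per the submitters' processing notes. How reads were counted (tool, annotation, strand, multi-mapping reads) is not given in the sources used here. CAST and DBA reads were aligned to the same build, and any effect of that on levels was not tested. The authors deposited FPKM values, identical in the sample files and the series table. Multiplied by GENCODE M21 gene spans (36429 of 38215 genes, 95.3%), 67.8% of values worth 0.5 to 100 reads came within 0.05 of whole reads, against 10.0% by chance, which gave estimated reads and depth.

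A filter of 10 or more estimated reads in 4 or more libraries (0.1 FPKM where no span was known) left 27058 genes. In R 4.3.3, limma 3.58.1 and statmod 1.5.0 were fitted to log2(FPKM + 1) of the 6 groups (trend, robust), with Benjamini-Hochberg adjustment over all genes in each of 9 contrasts. The fit was tested on simulated data. Spearman and Pearson correlations used Python 3.11.15. The members and gene lists were chosen with earlier results of these data known, and from each other list up to 4 genes with the largest change among its calls were named, besides the 10 genes with the highest r. One marker, Adgre1, was matched by its ID.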

Additional observations from a re-analysis of the deposited data

Results flagged for a closer look

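The crush response of Car3 differed between strains in the interaction contrasts of the fit across all genes, by -2.45 log2 units between CAST and C57, -1.35 between CAST and DBA and -1.10 between DBA and C57. Car3 was chosen with these values known, so the differences are a description. The last of them was not called with 0.1 FPKM added in place of 1 or on per-million estimated reads.

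In 42 groups of 4 libraries (7 genes in 6 groups) the highest or lowest library was compared with the others by Dixon's test at its 95% critical value, which chance passes in about 1 of 20 groups. In naive DBA ganglia replicate 3 was far above the other 3 libraries for Cfd (2.13 FPKM), Adipoq (0.0501 FPKM), Plin1 (0.0543 FPKM) and Retn (0.0666 FPKM). In injured DBA ganglia Plin1 was high in replicate 2 (0.0217 FPKM), and Car3 was high in replicate 1 (2.42 FPKM) within a group that spanned 2.25 to 2.42 FPKM.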

How the results depend on the processing

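The crush differences of Car3 in CAST, DBA and C57 kept their direction in all alternatives except CAST, where it was 0.04 with the adipocyte mean as a covariate and 0.064 with that covariate and 0.1 FPKM added. Values on the log2 scale were larger where less was added. With 0.1 FPKM added, they were 2.17 in DBA and 3.71 in C57 after crush, 0.98 for naive CAST against DBA, 1.39 for naive CAST against C57, and -2.59, -4.13 and -1.54 for the response in CAST against DBA, CAST against C57 and DBA against C57. On log2(per-million estimated reads + 0.5) the same values were 2.298, 3.88, 1.06, 1.499, -2.74, -4.32 and -1.58. With the adipocyte mean as a covariate, the naive difference reversed to -0.20 for CAST against C57, and was -0.37 for CAST against DBA. With the covariate and 0.1 FPKM added, an alternative added after seeing the data, the values were 2.25 in DBA and 4.04 in C57 after crush, -0.57 for naive CAST against DBA, -0.25 for naive CAST against C57, and -2.18, -3.97 and -1.79 for the same 3 differences of the response. With 3 libraries left out, also added later (the shallowest, replicate 3 of injured C57, and those that stood apart, replicate 1 of naive C57 and replicate 3 of naive DBA), the response in DBA against C57 was -0.79. For these moves other than those that the smaller added value makes by its construction, the cause was not tested. Leaving out single libraries gave -0.35 to -0.08 in CAST, 1.03 to 1.36 in DBA and 2.18 to 2.28 in C57 for the crush differences, and 0.882 to 0.918 for the r with group means removed. The ratios of means, calls and muscle correlations without naive DBA replicate 3 were also added after seeing the data. The naive difference of DBA against C57 was -0.03 without naive DBA replicate 3 and 0.20 with it.

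The replicate numbers showed no clear pairing of the samples. The r of same-numbered libraries was -0.247 to 0.278 (median 0.043, over 60 pairs). For libraries with other numbers it was -0.357 to 0.413 (median -0.008, over 180 pairs). With the replicate block the number of genes called was 12907 in CAST, 13681 in DBA and 10612 in C57 after crush, against 12758, 13566 and 10452 without it, and no count moved by more than 1.5 times. Depth limits Retn, Adipoq, Plin1 and Cidec most, whose highest library rested on 29.9, 170.8, 110.3 and 109.9 estimated reads.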
